A study of Mus musculus with 28 samples.

Results

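Mitochondrial ribosomal protein genes were followed through every library of a mouse macrophage RNA-seq series. They were taken from both deposited count tables by symbol, Mrpl or Mrps followed by a number, with 5 pseudogenes left out. This gave 78 protein-coding genes of 56951 genes in the 2 tables, 49 named Mrpl and 29 named Mrps. All 78 were in the table of the second experiment, and 77 were in that of the first, which does not list Mrpl53. Each passed the filter on low counts. The set was thus 77 of 13998 tested genes in the first experiment and 78 of 15429 in the second. They are called mitoribosomal here by symbol alone.

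The cells were bone marrow-derived macrophages (BMM), grown from mouse marrow for 6 days in medium conditioned by L929 cells and then held for 24 h without it. The first experiment has 4 libraries each of wild-type cells (WT), of cells from Irgm1-/- mice (Irgm1-KO) and of cells from IFNAR/Irgm1-/- mice, which also lack the type I interferon receptor (Irgm_IFNAR-KO). The second has 4 libraries each of WT_control, WT_fenofibrate, Irgm1KO_control and Irgm1KO_fenofibrate, with fenofibrate, an activator of the nuclear receptor PPARα, at 50 µM. Per the labels, the mutant strains had been backcrossed to C57BL/6, and male and female mice aged 2 to 4 months gave the marrow. The labels give neither how long the fenofibrate exposure lasted nor what control cells received, and there is no group lacking IFNAR alone. They also do not say that the 4 libraries of a group came from separate mice, so p-values measure only the spread between these samples, which may in part be technical.

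Mitochondrial ribosomes translate the few messenger RNAs that the mitochondrial genome encodes, which are core subunits of the respiratory chain and of ATP synthase. Their ribosomal RNA also comes from mitochondrial DNA, but all of their proteins are made from nuclear genes, translated in the cytosol and imported. Some of these proteins are homologues of bacterial ribosomal proteins and others occur only in mitochondria. Irgm1 is an interferon-inducible GTPase with known roles in autophagy and mitochondrial quality control, and macrophages lacking it are known for a raised type I interferon response.

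Levels are given as counts per 1000000 of the scaled library size (CPM), and a difference is a log2 fold change with its standard error (SE) from edgeR's quasi-likelihood test. A gene is said to have risen or fallen where the p-value, adjusted by the Benjamini-Hochberg method over all tested genes of the experiment, was under 0.05. Libraries held 48.7 to 70.5 M counts in the first experiment and 82.4 to 120.8 M in the second, and the lowest count of a mitoribosomal gene in any library was 133 and 232. Irgm1 ran from 1189 to 1352 CPM in WT and from 628 to 839 in Irgm1-KO, and from 1514 to 1669 in WT_control and 991 to 1040 in Irgm1KO_control. It was lower in every knockout library but not lost, and which part of the transcript the remaining reads cover was not tested. Ifnar1 was 114, 109, 53.1 and 108 CPM in Irgm_IFNAR-KO, 112 to 127 in Irgm1-KO and 128 to 141 in WT, so its counts overlapped between the knockout groups and only 1 library was far lower. Whether the remaining reads come from the deleted part cannot be read from counts per gene. At least 9 of 10 macrophage markers were above 1 CPM in each group. Their summed level, however, was 9702 to 14806 CPM in Irgm1-KO against 21541 to 41702 in WT. It was 10788 to 13018 in Irgm1KO_control against 22513 to 31153 in WT_control. Such a sum mostly follows the most abundant markers. Gene by gene, 4 of the 10 fell and 1 rose in Irgm1-KO (20.7% and 19.8% of all tested genes, median log2 fold change -0.22). In Irgm1KO_control 7 fell and 1 rose (26.1% and 27.3%, median -0.59). Summed markers reached at most 1.88 CPM for B cells, 3.79 for T cells, 9.93 for dendritic cells, 1.37 for mast cells and 8.11 for stromal cells. Counts of the first experiment hold only 1 of 5 B cell and 1 of 5 T cell markers. Stromal markers summed to 3.02 to 7.92 CPM in WT and 1.02 to 1.60 CPM in Irgm1-KO. Those of neutrophils summed to 16.2 to 40.7 CPM in WT and 5.67 to 9.76 CPM in Irgm1-KO. The part of these marker differences in the results was not tested, and in bulk RNA fewer cells of a type and less RNA per cell cannot be told apart.

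Libraries of the first experiment stood apart within their groups. The summed level of the 77 mitoribosomal genes was 1541, 2950, 2029 and 1904 CPM in WT replicates 1 to 4, and 1833, 1928, 2906 and 2082 CPM in Irgm1-KO. In Irgm_IFNAR-KO it was 1796, 2145, 1826 and 2617 CPM. WT replicate 2, Irgm1-KO replicate 3 and Irgm_IFNAR-KO replicate 4 were each the highest of their group, the farthest from their group's mean over all tested genes, and the lowest of their group in Xist, the RNA that silences an X chromosome in female cells (50.8, 97.9 and 97.2 CPM). The same libraries were the highest in cytosolic ribosomal protein genes, with 43764 CPM in WT replicate 2 against 18816 to 25243 in the other 3. Gene by gene, the median coefficient of variation of the mitoribosomal genes was 25.9% in WT, 19.1% in Irgm1-KO and 17.9% in Irgm_IFNAR-KO, against 18.0%, 14.9% and 12.5% over all tested genes. In the second experiment it was 3.51% to 7.75%, below that of all tested genes in each group (7.40% to 11.4%).

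Xist also varied within groups of the second experiment. It was 50.2, 1.78, 110 and 0.00843 CPM in WT_control replicates 1 to 4 and 73.2, 143, 1.31 and 103 CPM in Irgm1KO_control, and the same replicate numbers were low with fenofibrate. Libraries near 0 were 2 of 4 in WT_control and 1 of 4 in Irgm1KO_control, and libraries so different in Xist are not repeats of 1 RNA sample. With the log2 level of Xist as a term, 59 mitoribosomal genes rose and 2 fell in Irgm1KO_control against WT_control, against 60 and 2 without it.

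Per length of transcript and over all 28 libraries, the highest levels were those of Mrps21 (76.8 CPM per 1000 bases), Mrpl20 (74.8) and Mrpl30 (65.9). Mrps26 (2.52), Mrps25 (3.40) and Mrps35 (4.16) were lowest. The ranking depends on the annotated lengths: Mrps21, Mrpl20 and Mrpl30 have transcripts of 446, 494 and 662 bases and Mrps26, Mrps25 and Mrps35 of 4278, 6073 and 4162 bases. The genes lie on 17 chromosomes. Exons of 26 of them overlap another gene in the annotation used here, among them Mrpl47 (with Actl6a and Ndufb5), Mrps6 (with Slc5a3) and Mrps18b (with Gm16279). The strand setting of the counting is not given in the sources used here, and values of those 26 are uncertain for that reason.

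The comparison of Irgm1KO_control with WT_control asked what loss of Irgm1 does to these genes in cells of the second experiment not given fenofibrate. Most of the set was higher: 60 of 78 genes rose (of all tested genes, 27.3% rose) and 2 fell (26.1%). The median log2 fold change was 0.34, beside 0.00 over all tested genes, and 71 of 78 were above 0. For 59 genes every Irgm1KO_control library was above every WT_control library (27.8% of all tested genes), and for 3 the reverse held (26.3%). Genes of both symbol forms took part, with 37 of 49 Mrpl genes higher and 1 lower (median 0.40) and 23 of 29 Mrps genes higher and 1 lower (median 0.30). The summed level was 1510, 1492, 1535 and 1527 CPM in WT_control and 1886, 1921, 1833 and 1905 CPM in Irgm1KO_control. The groups did not overlap, and the means were 1516 ± 18.8 and 1886 ± 38.1 CPM (SD, n = 4).

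**Figure D1:**
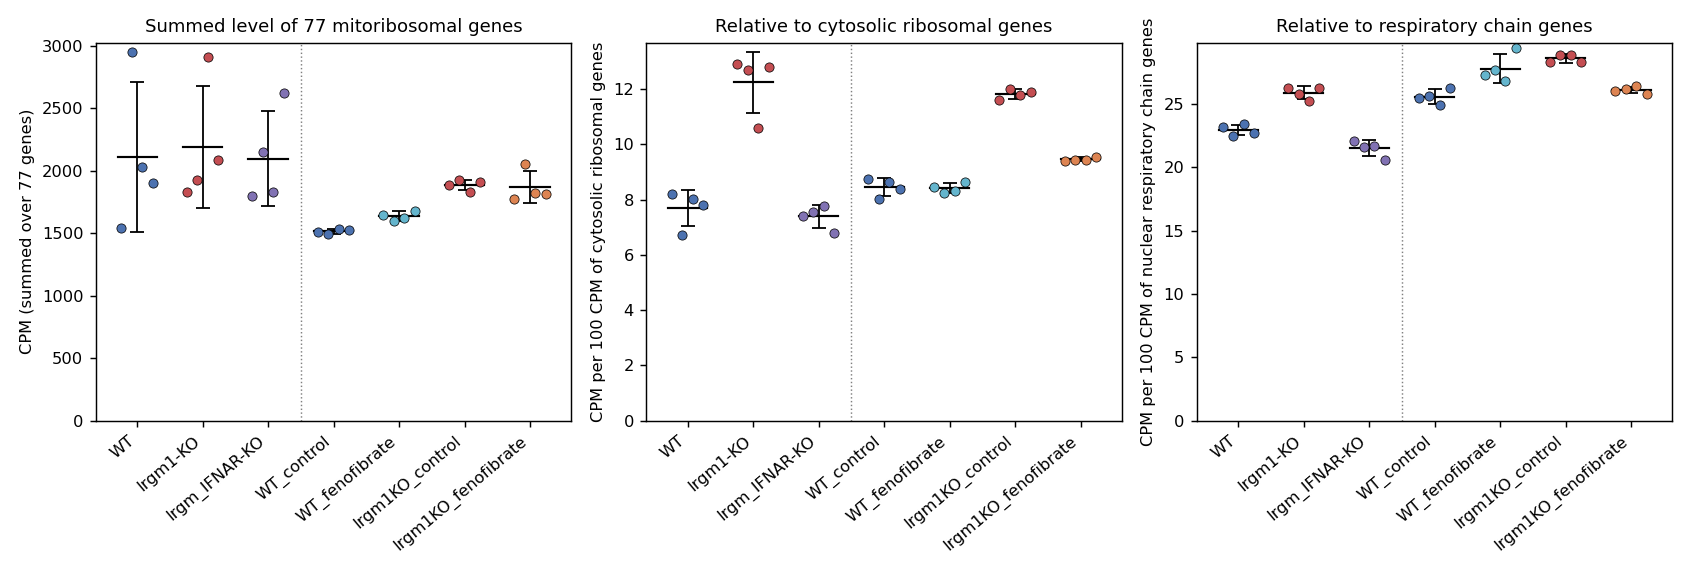
Summed level of 77 mitoribosomal genes in each library (left, CPM), the same per 100 CPM of cytosolic ribosomal protein genes (middle) and per 100 CPM of nuclear respiratory chain genes (right). Points are the 4 libraries of a group in order of replicate number, bars the mean and SD, and the dotted line parts the 2 experiments. Libraries of the first experiment spread from 1541 to 2950 CPM, while in the second all Irgm1KO_control libraries lie above all WT_control libraries.

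Mrpl38, a mitochondria-specific protein of the large subunit's central protuberance, differed most. Its level was 15.4, 13.8, 16.6 and 16.3 CPM in WT_control and 27.7, 30.6, 27.3 and 32.1 CPM in Irgm1KO_control, which made it 0.92 ± 0.0912 higher on the log2 scale (SE, adjusted p 3.86e-07, edgeR). Every knockout library was above every wild-type library. Mrpl47, which lies near the exit of the nascent chain tunnel, followed. It was 13.4, 13.7, 13.7 and 13.7 CPM in WT_control and 24.2, 24.3, 23.4 and 23.4 CPM in Irgm1KO_control, or 0.80 ± 0.0384 higher (log2, SE, adjusted p 1.92e-10, edgeR). The libraries within each group were nearly level, and the groups stood apart.

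Of the small subunit, Mrps22 and Mrps18b led, of which Mrps22 has no bacterial homologue. Mrps22 was between 9.76 and 11.9 CPM in WT_control and 19.4, 19.2, 18.1 and 18.7 CPM in Irgm1KO_control (log2 fold change 0.78 ± 0.0711, SE). Mrps18b was 12.6, 11.1, 12.5 and 12.6 CPM and 19.3, 22.5, 19.8 and 21.6 CPM in the same order (0.77 ± 0.0824). Neither gene's groups overlapped. Mrps10, a homologue of a bacterial small-subunit protein, was 9.69, 9.44, 9.68 and 10.6 CPM against 15.7, 16.3, 16.3 and 16.4 CPM (0.71 ± 0.0585), and Mrps6, at a low level, was 3.29, 2.71, 3.21 and 3.39 CPM against 5.20, 5.82, 4.61 and 5.33 CPM (0.73 ± 0.124). Among genes of known special roles, Mrpl12 of the large subunit's stalk (0.38 ± 0.0485), Mrps12 of the decoding centre (0.35 ± 0.0739) and Mrpl58, a peptidyl-tRNA hydrolase built into the large subunit (0.44 ± 0.0662), also rose.

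2 genes fell against this pattern. Mrps21, a homologue of a bacterial small-subunit protein and the highest of the set per length, was 32.2, 33.6, 33.2 and 32.9 CPM in WT_control and 25.1, 26.5, 25.4 and 23.7 CPM in Irgm1KO_control. All 4 knockout libraries lay below all wild-type ones, and the log2 fold change was -0.39 ± 0.0575 (SE, adjusted p 2.72e-05, edgeR). Mrpl16, whose bacterial homologue sits by the site where transfer RNA is accepted, was 23.9, 24.4, 24.8 and 23.8 CPM against 21.5, 20.9, 21.2 and 22.6 CPM. Its change was small, -0.17 ± 0.0558 (adjusted p 0.0171, edgeR), although the groups did not overlap. Without WT_control replicate 3 or without Irgm1KO_control replicate 2, the call of Mrpl16 was lost and 1 gene was called lower.

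The first experiment asked the same of Irgm1-KO and WT. There 9 of 77 genes rose (19.8% of all tested genes) and 1 fell (20.7%), with a median log2 fold change of 0.08 beside -0.02 over all tested genes. For 8 genes all Irgm1-KO libraries were above all WT libraries (17.5% of all tested genes), and for 0 the reverse. These shares are below the background, and the count depended on the libraries that stand apart. Without WT replicate 2, 18 genes rose, and without WT replicate 1 or Irgm1-KO replicate 3, 2 and 3 fell. With the log2 level of Xist as a term in the fit, 44 rose and 5 fell with a median of 0.28 (30.3% and 29.8% of all tested genes), and with the farthest library of each group left out, an alternative chosen after seeing the data, 22 rose and 4 fell (26.7% and 25.0%). The 9 genes were among those called in both of these alternatives.

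Mrpl38 again differed most, with 13.4, 15.9, 13.5 and 13.6 CPM in WT and 29.0, 30.2, 33.7 and 31.1 CPM in Irgm1-KO. The log2 fold change was 1.14 ± 0.114 (SE, adjusted p 8.06e-06, edgeR), and the groups did not overlap. Mrpl47 was 12.3, 16.2, 14.8 and 14.1 CPM against 21.9, 23.4, 28.5 and 22.9 CPM (0.75 ± 0.105), and Mrpl39, which resembles a threonyl-tRNA synthetase, was 22.7, 27.8, 24.0 and 26.6 CPM against 38.2, 40.8, 41.3 and 38.7 CPM (0.65 ± 0.0780). Groups overlapped for Mrps22 alone among the 9, and its call was lost without WT replicate 4 or Irgm1-KO replicate 3. The other genes that rose were Mrps10 (0.65 ± 0.129), Mrps18b (0.58 ± 0.0987), Mrps22 (0.57 ± 0.176), Mrps2 (0.43 ± 0.0718), Mrps5 (0.42 ± 0.0816) and Mrpl35 (0.34 ± 0.0597). Mrpl35, Mrps2 and Mrps5 were the 3 steadiest genes of the set in WT. Mrpl35, for one, was 19.3, 18.9, 19.7 and 19.8 CPM in WT and 23.4, 24.9, 24.8 and 24.9 CPM in Irgm1-KO. By contrast, Mrpl12 was 34.9, 108, 56.7 and 48.0 CPM in WT and 39.5, 44.2, 106 and 53.2 CPM in Irgm1-KO, so that the groups overlapped throughout (-0.03 ± 0.389). Mrps21 was the gene that fell, from 35.6, 63.3, 42.7 and 46.1 CPM to 24.1, 25.2, 37.6 and 27.0 CPM (-0.72 ± 0.204, adjusted p 0.0139, edgeR), and 1 Irgm1-KO library, replicate 3, lay within the WT range.

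The 2 experiments share no library. All 9 genes that rose in the first also rose in the second (100% of 9, 15% of 60), and Mrps21 fell in both (100% of 1, 50.0% of 2). As 60 of 78 genes rose in the second, a large overlap of rises would arise without any relation. Over the 77 genes in both, the log2 fold changes for loss of Irgm1 had a Pearson r of 0.85 and a Spearman rho of 0.84, and 45 genes were above 0 and 6 below 0 in both. This is a description across genes, which share libraries and are not independent replicates. Between transcript length and the change, Spearman's rho was 0.10 over 77 genes in the first experiment and 0.01 over 78 in the second.

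**Figure D2:**
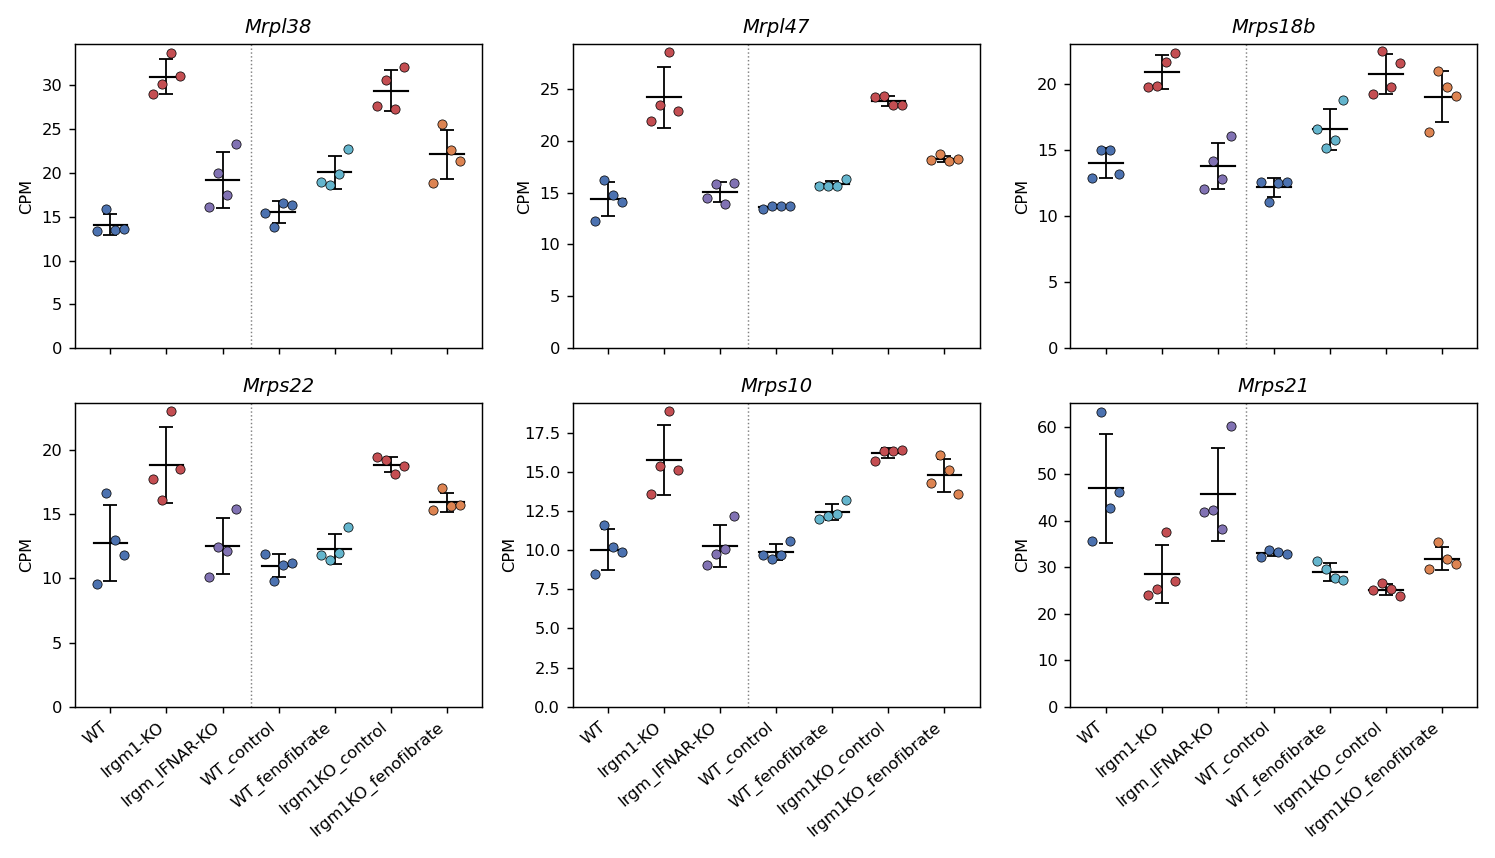
Levels (CPM) of Mrpl38, Mrpl47, Mrps18b, Mrps22, Mrps10 and Mrps21 in each library, with the 4 libraries of a group as points, the mean and SD as bars, and a dotted line between the experiments. For Mrpl38 the Irgm1-KO and Irgm1KO_control libraries lie between 27.3 and 33.7 CPM, the WT and WT_control libraries between 13.4 and 16.6 CPM and the Irgm_IFNAR-KO libraries between 16.1 and 23.3 CPM, while Mrps21 is lower in Irgm1KO_control than in WT_control.

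Upstream sequence was set out for genes that moved together, 5 that rose in the second experiment (Mrpl39, Mrps22, Mrpl27, Mrpl47 and Mrps10) and Mrps21, which fell. Each line holds the 150 bases before the annotated start, 5′ to 3′, from RefSeq's build GRCm38.p6, which is not the build the submitters name. Capitals mark a match to 1 of 5 motifs searched on both strands: CGCATGCG, bound by NRF1, CCGGAAGT, bound by ETS factors such as GABPA, AAGATGGCG, bound by YY1, the E-box CACGTG, and GAAANNGAA, of interferon response elements.
Mrpl39 (chr16:84735245-84735394, minus strand): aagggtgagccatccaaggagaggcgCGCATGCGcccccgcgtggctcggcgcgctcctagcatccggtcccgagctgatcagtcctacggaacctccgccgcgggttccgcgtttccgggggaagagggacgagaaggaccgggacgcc
Mrps22 (chr9:98601680-98601829, minus strand): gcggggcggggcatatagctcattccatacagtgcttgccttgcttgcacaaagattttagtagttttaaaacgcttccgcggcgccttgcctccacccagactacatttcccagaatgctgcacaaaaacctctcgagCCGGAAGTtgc
Mrpl27 (chr11:94653641-94653790, plus strand): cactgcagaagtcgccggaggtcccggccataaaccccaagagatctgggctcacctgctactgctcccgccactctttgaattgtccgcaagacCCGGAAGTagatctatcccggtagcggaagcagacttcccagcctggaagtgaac
Mrpl47 (chr3:32736756-32736905, minus strand): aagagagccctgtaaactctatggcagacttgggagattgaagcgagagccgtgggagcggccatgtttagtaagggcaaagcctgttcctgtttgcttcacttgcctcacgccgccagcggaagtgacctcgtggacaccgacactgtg
Mrps10 (chr17:47369047-47369196, plus strand): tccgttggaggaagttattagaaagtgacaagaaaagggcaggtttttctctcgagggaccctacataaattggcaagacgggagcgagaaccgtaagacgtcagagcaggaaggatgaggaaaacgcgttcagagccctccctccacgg
Mrps21 (chr3:95871515-95871664, minus strand): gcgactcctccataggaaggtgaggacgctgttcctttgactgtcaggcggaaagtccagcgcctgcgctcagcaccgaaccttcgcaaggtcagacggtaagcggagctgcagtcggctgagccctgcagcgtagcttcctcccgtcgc

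The capitals in Mrpl39 are the NRF1 motif and those in Mrps22 and Mrpl27 the ETS motif. The stretches of Mrpl47, Mrps10 and Mrps21 hold none of the 5. These genes are examples and not the largest changes. Mrps18b (log2 fold change 0.77) and Mrps6 (0.73) rose more than Mrpl27 (0.63) and Mrpl39 (0.51), and their own 150 bases hold no match. The longer promoter window described next also covers bases farther upstream and after the start. In it Mrps21 has a match to the interferon response motif and Mrps18b one to the NRF1 motif. Promoters of 300 bases, 250 before the start and 50 after it, were found for 69 of the 78 genes (75 promoters, as some genes have several). The NRF1 motif was in 9.33% of them, against 1.87% of all 32851 promoters and 3.71% of promoters of genes tested in the second experiment. The ETS motif was in 16%, against 3.89% and 8.07%, and the YY1 motif in 10.7%, against 1.4% and 2.93%. The E-box was in 9.33%, against 7.15% and 9.78%, and the interferon response motif in 9.33%, against 8.56% and 7.57%. Of the 7 genes with the NRF1 motif, 6 rose in Irgm1KO_control (median log2 fold change 0.51), and of the 62 without, 45 rose (0.33). The interferon response motif also gave 6 of 7 (0.44) and 45 of 62 (0.33). With the ETS motif 8 of 12 rose (0.28), and without it 43 of 57 (0.35). The YY1 motif gave 6 of 8 (0.32) and 45 of 61 (0.34), and the E-box 4 of 5 (0.44) and 47 of 64 (0.33). A match describes the letters of the window and is not a measured binding site.

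Setting Irgm_IFNAR-KO against Irgm1-KO addressed how far the differences depend on the type I interferon receptor. In it 13 of 77 genes fell (21.3% of all tested genes) and 1 rose (21.5%), with a median log2 fold change of -0.10 beside 0.02 over all tested genes. All Irgm_IFNAR-KO libraries were below all Irgm1-KO libraries for 12 genes (21.1% of all tested genes) and above them for 1 (21.2%). In both directions these counts are below the shares over all tested genes. Mrpl27, whose bacterial homologue reaches toward the site of peptide bond formation, fell most: it was 28.5, 28.1, 56.2 and 31.4 CPM in Irgm1-KO and 17.2, 21.3, 18.3 and 26.8 CPM in Irgm_IFNAR-KO (-0.79 ± 0.279, adjusted p 0.0388, edgeR). This call was lost without Irgm1-KO replicate 3, the highest library, and without Irgm_IFNAR-KO replicate 1, 2 or 3. Mrpl38 was 16.1, 20.0, 17.5 and 23.3 CPM in Irgm_IFNAR-KO, below every Irgm1-KO library (-0.69 ± 0.113). Mrpl47 (-0.69 ± 0.105) and Mrps10 (-0.61 ± 0.129) also fell, and Mrps21 rose by 0.68 ± 0.204 to 41.8, 42.3, 38.2 and 60.4 CPM. The count rose to 27 lower and 18 higher with the Xist term (30.5% and 33.1% of all tested genes) and to 20 lower and 8 higher without the farthest libraries (28.9% and 25.8%). The single rise was not called without Irgm1-KO replicate 1, Irgm1-KO replicate 2 or Irgm_IFNAR-KO replicate 4, and 6 rises were called without Irgm1-KO replicate 3.

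Against WT, edgeR called Mrpl38 alone in Irgm_IFNAR-KO: 1 of 77 genes rose (3.94% of all tested genes) and 0 fell (8.22%), with a median of -0.02. At an unadjusted p under 0.05, 0 genes were lower, and DESeq2 called 0 lower and 2 higher. Mrpl38 was 0.45 ± 0.113 higher (SE, adjusted p 0.0209, edgeR), between the WT and Irgm1-KO levels, and its libraries overlapped neither group. Of all tested genes, 7.50% had every Irgm_IFNAR-KO library above every WT library and 10.4% below, against 1 and 0 of the 77. Mrpl47, at 14.5, 15.8, 13.9 and 15.9 CPM, lay within the WT range (0.07 ± 0.105, adjusted p 0.837). With WT replicate 2 left out, 2 genes were called higher. Mrpl38's call was lost without WT replicate 3, WT replicate 4, Irgm_IFNAR-KO replicate 2 or Irgm_IFNAR-KO replicate 4. With the Xist term, 27 genes were called higher (14.9% of all tested genes) with a median of 0.15. These 3 comparisons share libraries in pairs, so a gene that is high in Irgm1-KO counts in more than one of them.

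**Figure D3:**
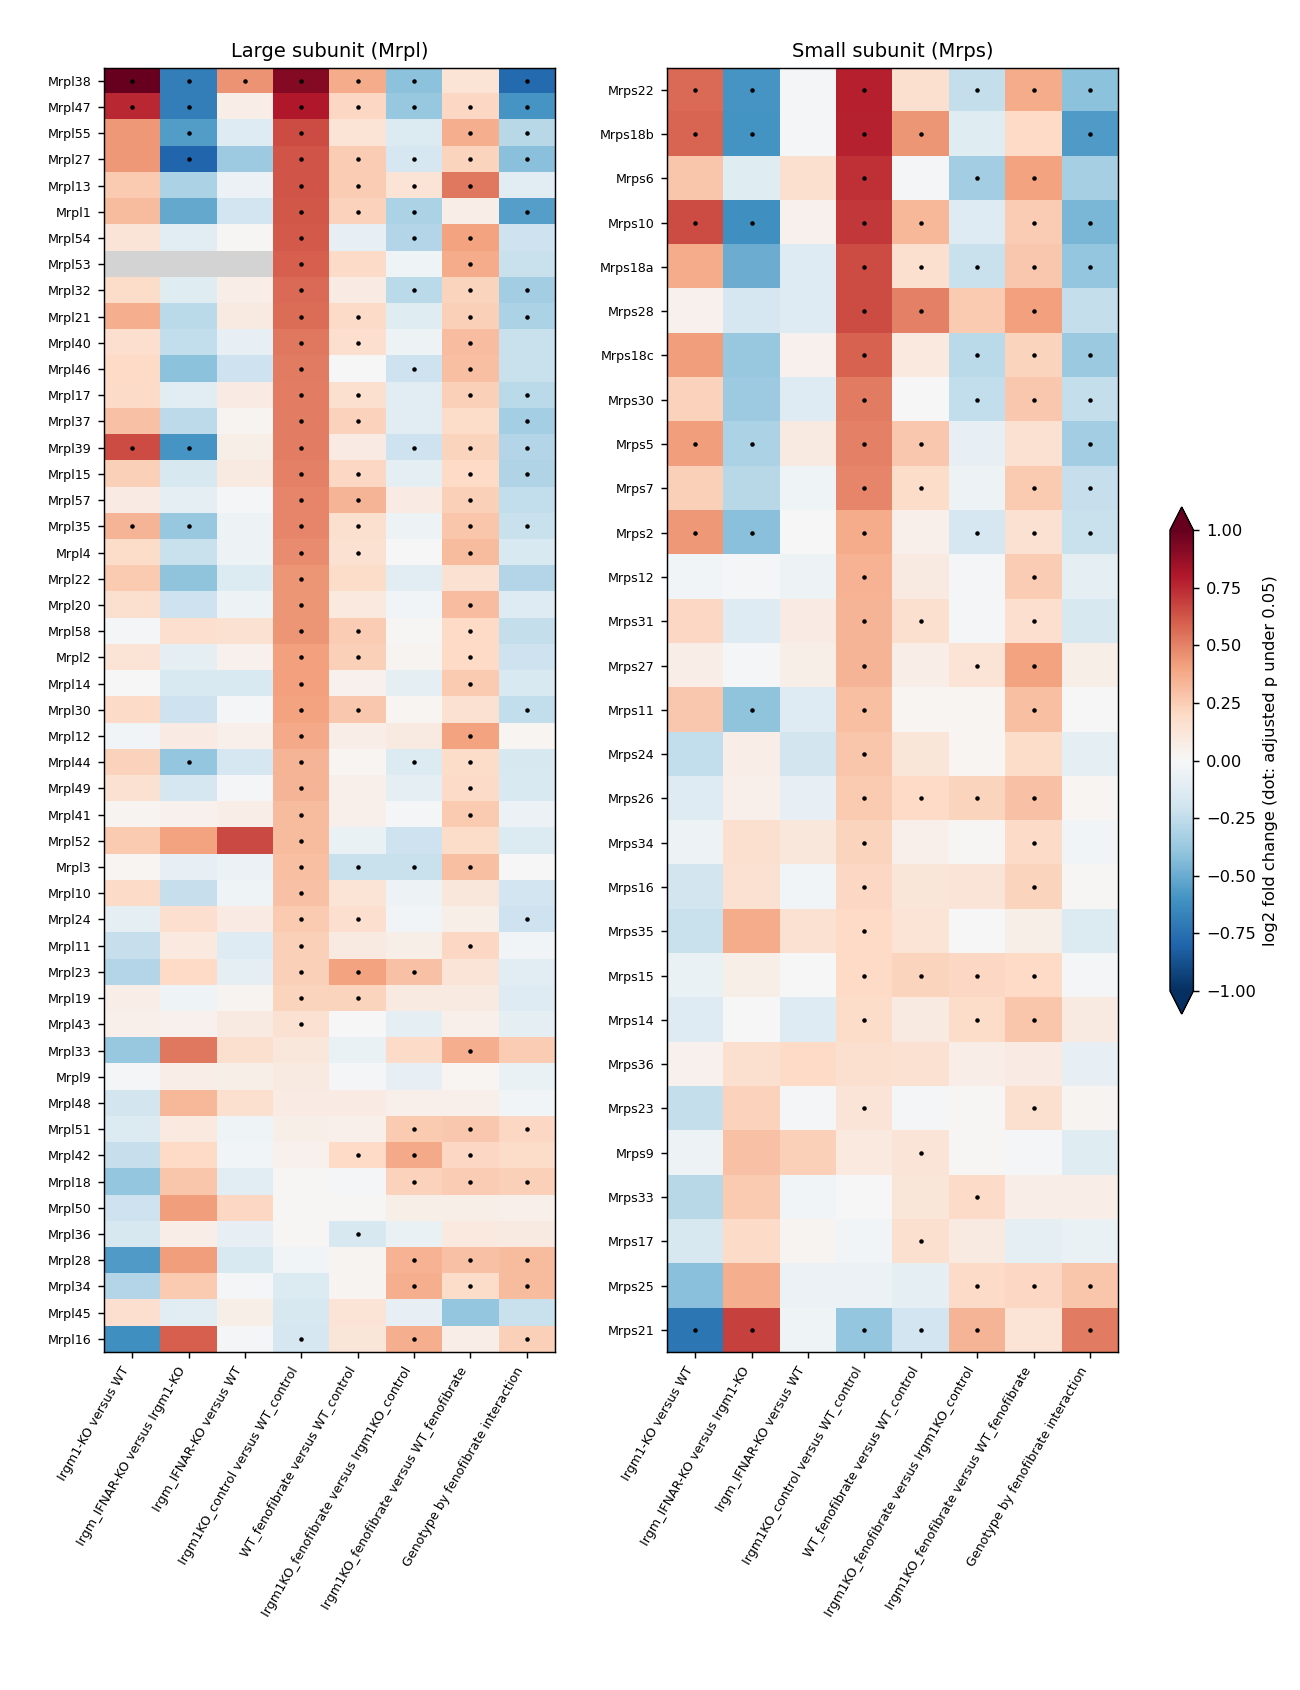
Log2 fold changes of the 49 Mrpl genes (left) and 29 Mrps genes (right) in the 8 comparisons, with genes ordered by Irgm1KO_control versus WT_control, red for higher and blue for lower, a dot where the adjusted p was under 0.05 and grey where the gene was not in the table. The column Irgm1KO_control versus WT_control holds 60 rises and 2 falls, and Mrps21 and Mrpl16 stand at the foot of their panels.

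Fenofibrate in WT cells raised more of the set than it lowered. In WT_fenofibrate 31 of 78 genes rose against WT_control (18.1% of all tested genes) and 3 fell (16.9%), with a median log2 fold change of 0.13 beside 0.02. All treated libraries were above all control libraries for 39 genes (19.0% of all tested genes) and below them for 4 (18.0%). The summed level was 1649, 1594, 1618 and 1681 CPM, above every WT_control library and below every Irgm1KO_control library. When every gene with a count was kept, 18 rose and 2 fell (7.11% and 7.48% of 30640 genes). Same-numbered control and fenofibrate libraries deviated together, and the fits behind the drug comparisons and the interaction hold no term for that. With that pairing in the fit, 35 rose and 3 fell (22.7% and 21.0% of all tested genes).

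Mrps28 rose most, from 4.63, 4.27, 4.42 and 5.14 CPM to 5.86, 6.28, 5.80 and 8.09 CPM (0.50 ± 0.108, adjusted p 0.00195, edgeR), and replicate 4 was its highest library. Mrps18b went from 11.1 to 12.6 CPM in WT_control to 16.6, 15.2, 15.8 and 18.8 CPM (0.44 ± 0.0822), and Mrpl38 from 13.8 to 16.6 CPM to 19.0, 18.6, 19.9 and 22.8 CPM (0.37 ± 0.0909). Both were genes that loss of Irgm1 had raised further, in a comparison that uses the same WT_control libraries. Mrpl23, a protein at the exit of the nascent chain tunnel, rose by 0.40 ± 0.0979. The genes that fell were Mrpl3 (-0.22 ± 0.0418), Mrps21 (-0.19 ± 0.0574) and Mrpl36 (-0.16 ± 0.0512), of which Mrpl3 alone was called without WT_fenofibrate replicate 3 or replicate 4. The call of Mrpl36 was also lost without WT_control replicate 2 or 4.

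In Irgm1KO cells the drug moved the genes in both directions. Against Irgm1KO_control, 15 of 78 genes rose in Irgm1KO_fenofibrate (23.5% of all tested genes) and 16 fell (22.2%), with a median of -0.02 beside 0.01. All treated libraries were above all control libraries for 16 genes (20.7% of all tested genes) and below them for 9 (20.8%). Both shares of calls were near the background, and without Irgm1KO_fenofibrate replicate 2, whose summed level of 2055 CPM stood above the 1775 to 1821 CPM of the other 3, 29 genes fell.

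Mrpl38 fell most here, from 27.7, 30.6, 27.3 and 32.1 CPM to 18.9, 25.6, 22.6 and 21.4 CPM (-0.41 ± 0.0904, adjusted p 0.00136, edgeR). Mrpl47 went from 23.4 to 24.3 CPM to 18.1, 18.7, 18.0 and 18.2 CPM (-0.38 ± 0.0381), and Mrps6 (-0.35 ± 0.123) and Mrpl1, of a mobile stalk of the large subunit (-0.32 ± 0.0423), also fell, although Mrps6 lost its call when any of 5 libraries was left out (Irgm1KO_control replicates 1 and 2, Irgm1KO_fenofibrate replicates 1, 3 and 4). All of these had risen with loss of Irgm1, and both comparisons use the Irgm1KO_control libraries. Mrpl42 rose most, from 27.6, 31.1, 28.4 and 27.0 CPM to 34.8, 44.2, 35.9 and 33.4 CPM (0.38 ± 0.0760), followed by Mrpl34 (0.36 ± 0.0603), Mrpl16 (0.36 ± 0.0558) and Mrpl28 (0.35 ± 0.0497). Mrps21 also rose, by 0.34 ± 0.0576, to 29.6, 35.3, 31.8 and 30.7 CPM, which overlapped the WT_fenofibrate range of 27.2 to 31.4 CPM.

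The drug's effects in the 2 genotypes, from separate libraries, were unrelated across the 78 genes (Pearson r 0.01, Spearman rho 0.01, a description across genes). Mrpl13, Mrpl23, Mrpl42, Mrps15 and Mrps26 rose in both (16.1% of the 31 rises in WT, 33.3% of the 15 in Irgm1KO). Mrpl1, Mrpl27, Mrpl38, Mrpl47 and Mrps18a rose in WT and fell in Irgm1KO (16.1% of 31, 31.2% of the 16 falls), and Mrps21 fell in WT and rose in Irgm1KO. Membership of these groups is uncertain for Mrpl13, Mrpl23, Mrpl27, Mrpl42, Mrps18a, Mrps21 and Mrps26, each of which lost a call in 1 of the genotypes when a single library was left out, and Mrps15 was not followed through those refits.

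**Figure D4:**
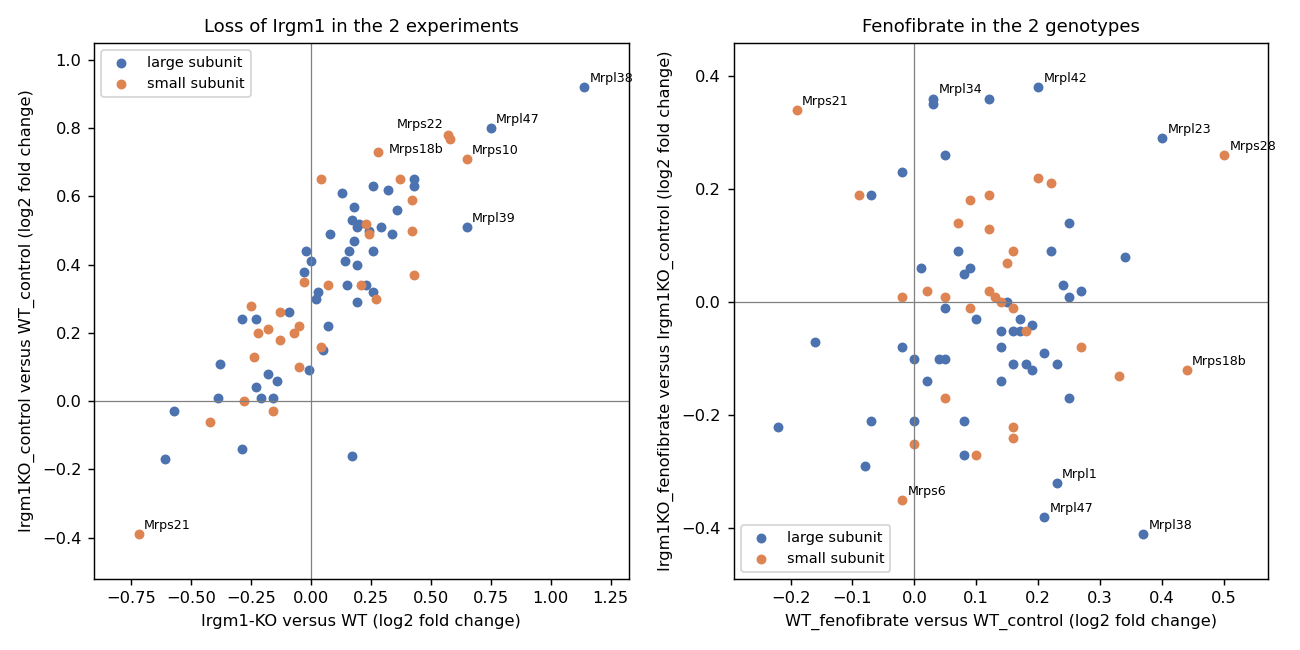
Log2 fold change of each mitoribosomal gene for loss of Irgm1 in the second experiment against the first (left, 77 genes) and for fenofibrate in Irgm1KO against WT cells (right, 78 genes), with colours for the subunit in the symbol. Points on the left follow a rising line (r 0.85) with Mrpl38 and Mrps21 at its ends, and points on the right show no such relation (r 0.01).

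The test of the difference itself, the fenofibrate effect in Irgm1KO minus that in WT, called 23 of 78 genes lower (14.7% of all tested genes) and 7 higher (14.9%), with a median of -0.15 beside 0.00 over all tested genes. The lowest were Mrpl38 (-0.78 ± 0.128, adjusted p 2.85e-04, edgeR), Mrpl47 (-0.59 ± 0.0540), Mrps18b (-0.57 ± 0.116) and Mrpl1 (-0.55 ± 0.0599). Highest were Mrps21 (0.52 ± 0.0813), Mrpl34 (0.32 ± 0.0852), Mrpl28 (0.32 ± 0.0702) and Mrps25 (0.28 ± 0.0687). The interaction uses the same control libraries as the comparison of genotypes without the drug. Without Irgm1KO_fenofibrate replicate 2, 39 genes were called lower, and with every gene with a count kept, 14 lower and 5 higher (5.50% and 6.35% of 30640 genes).

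Under fenofibrate the genotypes still differed. Against WT_fenofibrate, 52 of 78 genes rose in Irgm1KO_fenofibrate (18.1% of all tested genes) and 0 fell (15.2%) by edgeR, with a median of 0.21 beside 0.01 and 75 of 78 above 0. DESeq2 called 1 gene lower, as did edgeR without Irgm1KO_fenofibrate replicate 2, and 1 was lower at an unadjusted p under 0.05. All knockout libraries were above all wild-type libraries for 47 genes (15.2% of all tested genes) and below them for 1 (13.7%). The rises overlapped those of control cells in 45 genes (75.0% of 60, 86.5% of 52). With 60 and 52 of 78 genes called in the 2 comparisons, a large overlap would arise without any relation. These comparisons share no library, but same-numbered control and fenofibrate libraries of a genotype deviate together, so the overlap is not between independent samples. Mrpl13 was the leading gene, at 29.6, 30.3, 30.4 and 31.9 CPM in WT_fenofibrate and 44.4, 48.2, 40.7 and 43.1 CPM in Irgm1KO_fenofibrate (0.53 ± 0.0492, adjusted p 2.58e-06, edgeR). Mrps28 (0.41 ± 0.106), Mrpl12 (0.40 ± 0.0485) and Mrps6 (0.40 ± 0.124) came next, the last without a call when WT_fenofibrate replicate 2 or 3 or Irgm1KO_fenofibrate replicate 2 was left out. Mrpl38, the leading gene without the drug, was at 0.14 ± 0.0905 (adjusted p 0.255) and Mrps18b at 0.20 ± 0.0817 (adjusted p 0.0665), and libraries of the 2 genotypes overlapped for both.

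3 of the genes, Mrps18a, Mrps18b and Mrps18c, are paralogues of 1 bacterial protein that occupy different places in the mitochondrial ribosome, Mrps18a on the large subunit in spite of its symbol. In control cells of the second experiment Mrps18a (0.65 ± 0.0610) and Mrps18c (0.59 ± 0.0815) rose with loss of Irgm1, as did Mrps18b (0.77 ± 0.0824). In WT_fenofibrate, Mrps18b (0.44 ± 0.0822) and Mrps18a (0.16 ± 0.0609) rose, and Mrps18c was at 0.10 ± 0.0816 (adjusted p 0.391, edgeR). The rise of Mrps18a lost its call without any 1 of the 8 libraries, with DESeq2 (adjusted p 0.0533) and with its scaling (0.0541). In Irgm1KO_fenofibrate, Mrps18a (-0.22 ± 0.0607) and Mrps18c (-0.27 ± 0.0811) fell, and Mrps18b was at -0.12 ± 0.0816 (adjusted p 0.233). Differences among the 3 paralogues were not tested.

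Mrpl45, which anchors the ribosome to the inner mitochondrial membrane, had 2 levels among knockout libraries. It was 25.3, 45.4, 45.1 and 24.8 CPM in Irgm1KO_control replicates 1 to 4 and 24.7, 44.9, 41.1 and 21.9 CPM in Irgm1KO_fenofibrate, so replicates 1 and 4 were low and 2 and 3 high with and without the drug. In the 8 WT libraries of that experiment it lay between 37.9 and 44.2 CPM, and in the 12 of the first between 36.9 and 52.2 CPM. Mrpl10, 0.27 Mb away on chromosome 11, did not follow: it was 35.9, 33.4, 31.8 and 36.8 CPM and 31.4, 36.8, 32.3 and 32.8 CPM in the same knockout libraries. Mrpl45 lies 48.4 Mb from Irgm1 on the same chromosome, and edgeR called it in 0 of the 8 comparisons (0 at an unadjusted p under 0.05 as well). It was singled out after its values were seen.

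The mitoribosomal sum was set beside those of 2 other nuclear gene sets within each library, ratios chosen after seeing the data. Per 100 CPM of cytosolic ribosomal protein genes it was 8.19, 6.74, 8.04 and 7.80 CPM in WT, 12.9, 12.7, 10.6 and 12.8 CPM in Irgm1-KO and 7.42, 7.57, 7.79 and 6.81 CPM in Irgm_IFNAR-KO. Irgm1-KO libraries were thus all above both other groups in the first experiment too. In the second experiment the ratio ran from 8.04 to 8.75 in WT_control, 8.25 to 8.65 in WT_fenofibrate, at least 11.6 in Irgm1KO_control and 9.40 to 9.56 in Irgm1KO_fenofibrate. Cytosolic ribosomal protein genes themselves went the other way, with 25 of 77 lower in Irgm1-KO (median -0.62, beside 20.7% of all tested genes) and 40 of 79 lower and 1 higher in Irgm1KO_control (median -0.16, beside 26.1% and 27.3%). In the second experiment the ratio thus moved from both sides. In the first, the mean mitoribosomal sum was 2106 ± 599 CPM in WT and 2187 ± 490 CPM in Irgm1-KO (SD, n = 4). The cytosolic sum was 28058 ± 10852 and 18300 ± 6216 CPM, so there the ratio differed mainly through the cytosolic genes. Per 100 CPM of nuclear respiratory chain genes the sum ran from 22.5 to 23.4 in WT, 25.2 to 26.3 in Irgm1-KO and 20.6 to 22.1 in Irgm_IFNAR-KO, and from 24.9 to 26.3 in WT_control and 28.3 to 28.9 in Irgm1KO_control. Irgm1-KO and Irgm1KO_control each stood above their wild type there, and Irgm_IFNAR-KO lay below WT. With fenofibrate the ratio ran from 26.8 to 29.4 in WT_fenofibrate and 25.8 to 26.4 in Irgm1KO_fenofibrate. There every knockout library was below every wild-type library. Ratios depend on both sums, and neither is a measure of ribosome number.

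Other proteins and factors of mitochondrial translation were counted from lists. All 5 ribosomal proteins whose symbols have another form rose in Irgm1KO_control (Dap3, Ptcd3, Chchd1, Aurkaip1 and Gadd45gip1, median 0.38), and in Irgm1-KO 1 of 5, Ptcd3, rose. Of factors that assemble the mitoribosome or modify its RNA, 18 of 27 rose in Irgm1KO_control (median 0.28, beside 27.3% of all tested genes), and 5 rose and 1 fell in Irgm1-KO (median 0.18, beside 19.8% and 20.7%). Nsun4, a methyltransferase needed to join the subunits, went from 8.57 ± 0.349 to 16.2 ± 0.776 CPM in the first experiment and from 7.90 ± 0.352 to 11.7 ± 0.954 CPM in the second (SD, n = 4). Of translation factors, 10 of 16 rose and 1 fell in Irgm1KO_control, and 4 rose and 1 fell in Irgm1-KO. The elongation factor Gfm1 rose in both (0.35 ± 0.0416 and 0.37 ± 0.0694 on the log2 scale), and Oxa1l, which inserts new proteins into the inner membrane, fell in both (-0.18 and -0.27). Of mitochondrial aminoacyl-tRNA synthetases and the amidotransferase, 10 of 20 rose and 1 fell in Irgm1KO_control, led by Ears2, which charges glutamate (0.92 ± 0.0952), and 3 rose and 1 fell in Irgm1-KO. In Irgm1-KO the rises among assembly factors, translation factors and synthetases were thus near the share over all tested genes.

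The messenger RNAs that this machinery reads were counted too. Of 13 mitochondrially encoded messenger RNAs, 7 were counted above 1 CPM and tested. All 7 fell in Irgm1-KO (median log2 fold change -1.65) and in Irgm1KO_control (-1.17), and all 7 rose in Irgm_IFNAR-KO against Irgm1-KO (1.94) and in Irgm1KO_fenofibrate against Irgm1KO_control (1.05). In WT_fenofibrate 6 of the 7 fell (-0.52), and in Irgm1KO_fenofibrate against WT_fenofibrate 2 rose (0.24). The mitoribosomal medians in these 6 comparisons were 0.08, 0.34, -0.10, -0.02, 0.13 and 0.21 in the same order. The summed level of the messenger RNAs was 12103 to 13019 CPM in WT and 4393 to 5137 in Irgm1-KO, and 16791 to 18795 in WT_control and 6882 to 8653 in Irgm1KO_control. The large-subunit ribosomal RNA mt-Rnr2 fell in Irgm1-KO (-1.23 ± 0.129) and Irgm1KO_control (-0.96 ± 0.138), and the small-subunit mt-Rnr1 fell in Irgm1-KO (-0.64 ± 0.175) and was at -0.08 ± 0.143 in Irgm1KO_control (adjusted p 0.674, edgeR). Libraries were enriched for messenger RNA, per the labels, so mt-Rnr levels are no measure of ribosome content. Of 12 genes that regulate mitochondrial biogenesis, 5 rose and 4 fell in Irgm1-KO (beside 19.8% and 20.7% of all tested genes) and 7 rose and 4 fell in Irgm1KO_control (27.3% and 26.1%). Among them, Esrra (0.57 and 0.52) and Nrf1 (0.23 and 0.15) rose and Gabpa (-0.44 and -0.33) fell with loss of Irgm1 in the first and second experiment. Of 17 mitochondrial chaperones, mitochondrial proteases and ATF4-linked stress genes, 14 rose in Irgm1-KO, 16 in Irgm1KO_control and 16 in WT_fenofibrate. The medians were 1.26, 1.14 and 1.26, and the shares of all tested genes that rose 19.8%, 27.3% and 18.1%. All 12 interferon-stimulated genes of the list rose in both knockout comparisons without the drug, and all 12 fell in Irgm_IFNAR-KO against Irgm1-KO and in Irgm1KO_fenofibrate against Irgm1KO_control. The relation of these sets to the mitoribosomal genes was not tested.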

How the data were processed

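RNA from 28 macrophage libraries was sequenced in 2 experiments of 12 and 16 libraries. The authors deposited a table of whole-number counts per gene for each experiment. The tools STAR, fastp and DESeq2 and the build GRCm39 are named, per the submitters' processing notes, without versions. How reads were counted, with which annotation release and strand setting, is not given in the sources used here. The first deposited table lists 15423 genes, each with a count of at least 10 in some library. The second lists 56941 genes, 26301 of them with no count. Symbols came from a table of gene names (99.6% and 91.2% of identifiers matched), and lengths, overlaps and distances from an annotation on GRCm38.

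Each experiment was fitted as a whole with edgeR 4.0.16 (R 4.3.3, limma 3.58.1), using TMM scaling, a filter on low counts (minimum count 10, minimum total 15) and the robust quasi-likelihood test. P-values were adjusted by the Benjamini-Hochberg method over all tested genes, with a threshold of 0.05. The same steps were tested on simulated data. Counting error is small at these depths, and replicate libraries differed by more than sampling noise (chi-square per degree of freedom 21.3 to 569).

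Members and lists were chosen with earlier results of these data known. Genes named in the text are, in each of 8 comparisons, up to 4 rises and 4 falls that were largest among called genes, the 3 highest and 3 lowest per length, and Mrpl12, Mrpl58, Mrps12, Mrps18a, Mrps18b and Mrps18c. Others were named after their values were seen. Alternatives were DESeq2 1.42.0, its scaling (RLE), no filter, total-count scaling, a replicate block, the log2 level of Xist (plus 0.1 CPM) as a covariate, and leaving out libraries. In the second experiment same-numbered control and fenofibrate libraries of a genotype deviated together from their group means (r 0.38 to 0.49 in WT, 0.26 to 0.37 in Irgm1KO). Same-numbered libraries of the first experiment did not (r from -0.48 to 0.52). The main fits hold no term for the pairing in the second experiment, which only the replicate block has.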

Additional observations from a re-analysis of the deposited data

Results flagged for a closer look

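In groups of 4, a library was singled out where its gap to the nearest other library exceeded Dixon's 95% critical share of the group's range. This was tested on 224 values, and chance alone singles out about 1 in 20. Irgm1KO_fenofibrate replicate 2 was highest in the mitoribosomal sum (2055 CPM), Mrpl30 (49.4 CPM), Mrps12 (14.5 CPM) and Mrps26 (14.2 CPM). Irgm1-KO replicate 3 was highest in Mrpl13 (83.2 CPM), Mrpl27 (56.2 CPM), Mrpl30 (64.1 CPM), Mrps25 (27.0 CPM) and Mrps6 (6.77 CPM), and lowest in the mitoribosomal sum per 100 CPM of cytosolic ribosomal protein genes (10.6 CPM). WT_fenofibrate replicate 4 was highest in Mrpl20 (27.6 CPM), Mrpl23 (5.59 CPM) and Mrpl47 (16.3 CPM). Single values that stood above their group were Mrpl38 in WT replicate 2 (15.9 CPM), Mrps18c in Irgm_IFNAR-KO replicate 4 (9.77 CPM), and Mrps35 in WT_fenofibrate replicate 3 (14.7 CPM) and Irgm1KO_control replicate 2 (14.5 CPM). Values below their group were Mrpl34 in Irgm1KO_control replicate 4 (13.3 CPM), Mrpl47 in WT_control replicate 1 (13.4 CPM) and Mrps18b in WT_control replicate 2 (11.1 CPM).

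The fenofibrate effect differed between genotypes by edgeR's interaction test for 16 of the named genes. Given as the log2 effect in Irgm1KO minus that in WT, it was lower for Mrpl38 (-0.78), Mrpl47 (-0.59), Mrps18b (-0.57), Mrpl1 (-0.55), Mrps10 (-0.46), Mrpl27 (-0.42), Mrps22 (-0.41), Mrps18a (-0.39), Mrps18c (-0.37), Mrpl39 (-0.29) and Mrpl30 (-0.25). It was higher for Mrps21 (0.52), Mrpl28 (0.32), Mrpl34 (0.32), Mrps25 (0.28) and Mrpl16 (0.24). The call of Mrpl16 was lost when any of 11 libraries was left out, and that of Mrps18c without Irgm1KO_control replicate 1.

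Among the pseudogenes left out, 3 held reads in every library. The lowest count in any library was 22 and 25 for Mrpl23-ps1, 58 and 75 for Mrpl48-ps, and 3 and 1 for Mrps36-ps1, in the first and second experiment. Reads of a near-identical parent and pseudogene can be assigned to either, so levels of Mrpl23, Mrpl48 and Mrps36 are uncertain to that extent.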

How the results depend on the processing

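In the first experiment the Xist term gave 44 genes higher and 5 lower in Irgm1-KO against WT, 18 higher and 27 lower in Irgm_IFNAR-KO against Irgm1-KO, and 27 higher in Irgm_IFNAR-KO against WT. Leaving out the farthest library of each group, chosen after seeing the data, gave 22 and 4, 8 and 20, and 2 higher for the same comparisons. For Irgm_IFNAR-KO against Irgm1-KO, DESeq2 called 2 higher and the replicate block 2 higher. DESeq2 called 2 higher in Irgm_IFNAR-KO against WT and 1 lower in Irgm1KO_fenofibrate against WT_fenofibrate. Without the low-count filter, which in the second experiment meant adjusting over 30640 genes, 18 rose with fenofibrate in WT and 14 were lower in the interaction (7.11% and 5.50% of those genes). With total-count scaling the mean summed level was 1458 CPM in WT_control and 1699 CPM in WT_fenofibrate. The direction of Mrpl13 in Irgm_IFNAR-KO against WT was reversed with the Xist term, from -0.06 to 0.31 (adjusted p 0.045, edgeR), and the cause was not tested.

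With one library left out at a time, calls higher and lower ranged from 8 to 18 and 1 to 3 (Irgm1-KO against WT), 0 to 6 and 10 to 16 (Irgm_IFNAR-KO against Irgm1-KO), 0 to 2 higher (Irgm_IFNAR-KO against WT), 57 to 60 and 1 to 2 (Irgm1KO_control against WT_control), 21 to 28 and 1 to 3 (fenofibrate in WT), 12 to 15 and 11 to 29 (fenofibrate in Irgm1KO), 38 to 55 and 0 to 1 (Irgm1KO_fenofibrate against WT_fenofibrate), and 5 to 7 and 18 to 39 (interaction). Shares of all tested genes called in these refits are not given here. The mean summed level ranged from 1825 to 2294 CPM in WT, 1947 to 2305 in Irgm1-KO, 1922 to 2196 in Irgm_IFNAR-KO, 1510 to 1524 in WT_control, 1620 to 1649 in WT_fenofibrate, 1874 to 1904 in Irgm1KO_control and 1804 to 1898 in Irgm1KO_fenofibrate.

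With the replicate block, 35 genes rose and 3 fell with fenofibrate in WT (22.7% and 21.0% of all tested genes). In Irgm1KO, 18 of 78 rose and 20 fell (27% and 26% of all tested genes), which is not above those shares. In the interaction, 7 were higher and 29 lower (19.3% and 19.1% of all tested genes). None of these counts of mitoribosomal genes was beyond 1.5 times the unblocked count.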

Other observations

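Nuclear genes of the respiratory chain, whose mitochondrial partners these ribosomes make, were tested as a further list. The shares of all tested genes called higher and lower, to be read beside each count, were 27.3% and 26.1% in Irgm1KO_control, 19.8% and 20.7% in Irgm1-KO, 23.5% and 22.2% with fenofibrate in Irgm1KO, 18.1% and 16.9% with fenofibrate in WT, and 18.1% and 15.2% between genotypes under the drug. In Irgm1KO_control 36 of 80 rose and 10 fell (median log2 fold change 0.14), while in Irgm1-KO 2 of 79 rose and 5 fell (-0.15). Fenofibrate raised 40 of 80 and lowered 3 in Irgm1KO (0.16), and in WT 10 rose and 7 fell (0.00), both below those shares. Under the drug 62 of 80 were higher and 1 lower in Irgm1KO than in WT (0.28). Of 20 genes that replicate, transcribe or process mitochondrial DNA and RNA, 11 rose and 4 fell in Irgm1KO_control (0.21, the falls below the share over all tested genes), and 7 rose and 3 fell in Irgm1-KO (0.23).

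Cell cycle genes moved in these comparisons too. Of 22, 16 fell and 1 rose in Irgm1-KO (median -1.36), and 13 fell and 8 rose in Irgm1KO_control (-0.49). With fenofibrate 19 rose in Irgm1KO (0.92) and 5 rose in WT (0.01). These counts are to be read beside the same shares of all tested genes as those of the respiratory chain above. The part of the cell cycle genes in the mitoribosomal values was not tested.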
